A study of Mus musculus with 2 samples.

Results

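The Polycomb complex genes considered here were 9 members chosen by name, the PRC2 genes *Ezh2*, *Eed*, *Suz12*, *Jarid2* and *Mtf2* and the PRC1 genes *Rnf2*, *Ring1*, *Pcgf6* and *Kdm2b*, and all 9 were found among the 54146 features of the files. They were measured by inDrop single-cell RNA-seq, a droplet method that counts unique molecular identifiers (UMIs) from the 3′ end of transcripts, in 1 library of wild-type (WT) and 1 library of *Lin28a* knockout (KO) mouse ES cells. LIN28A is an RNA-binding protein of pluripotent cells, and the series asked how its loss alters the transcriptome of single ES cells. Both cultures were mouse ES cells derived from the inner cell mass and grown on gelatin with MEF feeder cells in 2i/LIF medium. The KO cells were edited with CRISPR/Cas9 and a guide to the second exon of *Lin28a*, and the study's methods name 1 clone for each library. By the study's description these are clones of E14 ES cells, and the WT clone had been transfected as well, although its label reads untreated. Since each genotype was 1 library of 1 clone, a difference between genotypes cannot be told apart from any other difference between the 2 cultures, no test of the genotype exists, and every interval below (exact, at 95%) covers counting error only.

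PRC2 places methyl groups on lysine 27 of histone H3, a mark of silenced developmental genes. EZH2 is its methyltransferase, EED binds the methylated histone tail and stimulates the enzyme, SUZ12 holds the core together, and JARID2 and MTF2 are accessory subunits that help bring the complex to CpG islands. PRC1 attaches ubiquitin to histone H2A through RNF2 (RING1B) or RING1 (RING1A), PCGF6 defines the variant of PRC1 that holds germline genes silent in ES cells, and KDM2B binds unmethylated CpG islands through its CXXC domain and recruits another variant.

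The 9 genes lie on 8 chromosomes (GRCm38, GENCODE M21 gene bounds). Of the PRC2 genes, *Ezh2* (ENSMUSG00000029687.16) spans chr6:47530139-47595341 on the minus strand, *Eed* (ENSMUSG00000030619.9) chr7:89954654-89980983 minus, *Suz12* (ENSMUSG00000017548.15) chr11:79993106-80034123 plus, *Jarid2* (ENSMUSG00000038518.15) chr13:44729474-44921643 plus and *Mtf2* (ENSMUSG00000029267.17) chr5:108065674-108109004 plus. Of the PRC1 genes, *Rnf2* (ENSMUSG00000026484.13) spans chr1:151458004-151500955 minus, *Ring1* (ENSMUSG00000024325.8) chr17:34020792-34024680 minus, *Pcgf6* (ENSMUSG00000025050.7) chr19:47033617-47050906 minus and *Kdm2b* (ENSMUSG00000029475.17) chr5:122870665-122989823 minus. Other annotated genes overlap 7 of the 9, among them *Tmed5* at *Mtf2*, *Trmt1l* at *Rnf2* and *Rnf34* at *Kdm2b*, while *Ring1* and *Pcgf6* overlap none. The files assigned only 4 UMIs of the members ambiguously, 3 of *Jarid2* and 1 of *Kdm2b*. Whether the counting used strand is not given in the sources used here.

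The start sites of the 9 genes fall in CpG-rich sequence. RefSeq gives 14 promoter windows of 300 bases for them (250 before and 50 after a start, GRCm38.p6), and these held a median of 29 CpG, from 2 at an inner start of *Mtf2* to 49 at *Kdm2b*, against a median of 7 over 32851 windows of all genes. Of 7 motifs searched on both strands, the E2F letters TTTCCCGC, TTTCGCGC, TTTGCCGC and TTTGGCGC were in 2.26% of all windows and in 2 member windows, those of *Ezh2* and *Suz12*. The E-box CACGTG (7.15% of all windows), the NRF1 letters GCATGCG (3.58%), the YY1 letters AAGATGGC (2.75%) and the ETS letters CCGGAAGT (3.89%) were in 0 member windows. CCAAT was in 8 of the 14 windows (37.4% of all) and the GC box GGGCGG in 10 of 14 (35.7% of all). The shares over all windows are not matched for CpG, in which the member windows are richer. A match describes the letters, no binding was measured and no link of the letters with the KO over WT ratios was tested. The windows of *Ezh2* (chr6:47594981-47595280, minus strand) and *Suz12* (chr11:79992856-79993155, plus strand) are printed because they hold the E2F letters, in capitals, and because these genes had the lowest KO over WT ratios of the 9. The window of *Ring1* (chr17:34024631-34024930, minus strand), with 37 CpG and no E2F match, is printed because *Ring1* did not share the pattern of the other members across cells. The match begins 4 bases after the start in *Ezh2* and 219 before it in *Suz12*.
Ezh2: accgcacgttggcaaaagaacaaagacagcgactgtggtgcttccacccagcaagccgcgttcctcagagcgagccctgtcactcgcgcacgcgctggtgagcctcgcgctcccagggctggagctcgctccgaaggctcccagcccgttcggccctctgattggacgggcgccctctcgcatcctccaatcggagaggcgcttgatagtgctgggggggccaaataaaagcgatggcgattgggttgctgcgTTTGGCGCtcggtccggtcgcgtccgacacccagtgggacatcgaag
Suz12: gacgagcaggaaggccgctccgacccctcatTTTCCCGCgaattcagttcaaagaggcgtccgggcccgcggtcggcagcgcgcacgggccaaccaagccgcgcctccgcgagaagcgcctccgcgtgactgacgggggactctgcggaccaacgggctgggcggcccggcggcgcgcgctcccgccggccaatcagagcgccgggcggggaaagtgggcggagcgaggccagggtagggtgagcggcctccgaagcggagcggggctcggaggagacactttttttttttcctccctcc
Ring1: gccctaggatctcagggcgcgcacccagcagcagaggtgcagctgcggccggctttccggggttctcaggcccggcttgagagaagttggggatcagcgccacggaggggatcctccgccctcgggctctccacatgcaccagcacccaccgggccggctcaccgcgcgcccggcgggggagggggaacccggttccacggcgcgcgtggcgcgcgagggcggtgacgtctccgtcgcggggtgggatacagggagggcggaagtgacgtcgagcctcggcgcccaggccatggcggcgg

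Barcodes with at least 500 UMIs and at most 20% mitochondrial UMIs were kept, which left 1856 of 4329 WT and 1622 of 6060 KO barcodes, with medians of 6140 and 5063.5 UMIs and with 11639256 and 9340855 UMIs in all. Barcodes are numbered, not given by sequence, so cells shared by the libraries could not be looked for. All 12 ES markers, among them *Pou5f1*, were detected in both libraries. Fibroblast RNA was also present: 41 WT and 21 KO barcodes had at least 0.5% of their UMIs on the collagen genes *Col1a1*, *Col1a2* and *Col3a1* and are called collagen-rich. *Lin28a* itself was at 107 CPM (UMIs of the gene over all UMIs, scaled to 1000000; interval 101 to 113) in WT and 36.6 CPM (32.8 to 40.7) in KO. Its remaining RNA does not check the label, since the edit lies in the second exon and the method reads the 3′ end.

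The PRC2 members were lower in the KO library than in the WT library, and over all kept cells the PRC1 sum was not. *Ezh2*, the methyltransferase, was at 344 CPM in WT (333 to 355, 4003 UMIs) and 237 CPM in KO (227 to 247, 2211 UMIs). *Suz12*, the scaffold, was at 239 CPM in WT (230 to 248) and 153 CPM in KO (145 to 161). *Eed*, the reader subunit, was at 133 CPM in WT (127 to 140) and 113 CPM in KO (107 to 120). The WT value was the higher of the pair for each of these core genes. The KO over WT ratio was 0.688 for *Ezh2* (0.653 to 0.725), 0.643 for *Suz12* (0.603 to 0.685) and 0.850 for *Eed* (0.785 to 0.919). The accessory gene *Jarid2* was at 204 CPM in WT (196 to 213) and 162 CPM in KO (154 to 170), a ratio of 0.793 (0.743 to 0.846). *Mtf2*, the other accessory gene, was at 354 CPM in WT (343 to 365) and 284 CPM in KO (274 to 295), a ratio of 0.804 (0.765 to 0.844). Summed, the 5 PRC2 genes were at 1274 CPM in WT (1253 to 1294) and 949 CPM in KO (930 to 969), a ratio of 0.745 (0.726 to 0.765).

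The PRC1 members split. *Kdm2b*, the CpG island binder, was at 46.2 CPM in WT (42.4 to 50.3, 538 UMIs) and 64.4 CPM in KO (59.4 to 69.8, 602 UMIs). Its ratio of 1.39 (1.24 to 1.57) was the one whose interval lay above 1 over all kept barcodes. *Pcgf6* was at 64.5 CPM in WT (60.0 to 69.3) and 48.7 CPM in KO (44.3 to 53.4), a ratio of 0.755 (0.6705 to 0.849). *Rnf2*, the main ligase of ES cells, was at 43.0 CPM in WT (39.4 to 47.0) and 40.8 CPM in KO (36.8 to 45.1). The *Rnf2* intervals overlapped, and its ratio of 0.948 (0.827 to 1.08) did not set the libraries apart at this depth. *Ring1* had few UMIs, 90 in WT (7.73 CPM, 6.22 to 9.50) and 97 in KO (10.4 CPM, 8.42 to 12.7), and its ratio of 1.34 (0.998 to 1.81) was not resolved over all kept barcodes, while outside the collagen-rich barcodes it was 1.46 (1.07 to 1.98). The 4 PRC1 genes summed were at 162 CPM in WT and 164 CPM in KO, a ratio of 1.017 (0.9504 to 1.09).

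**Figure D1:**
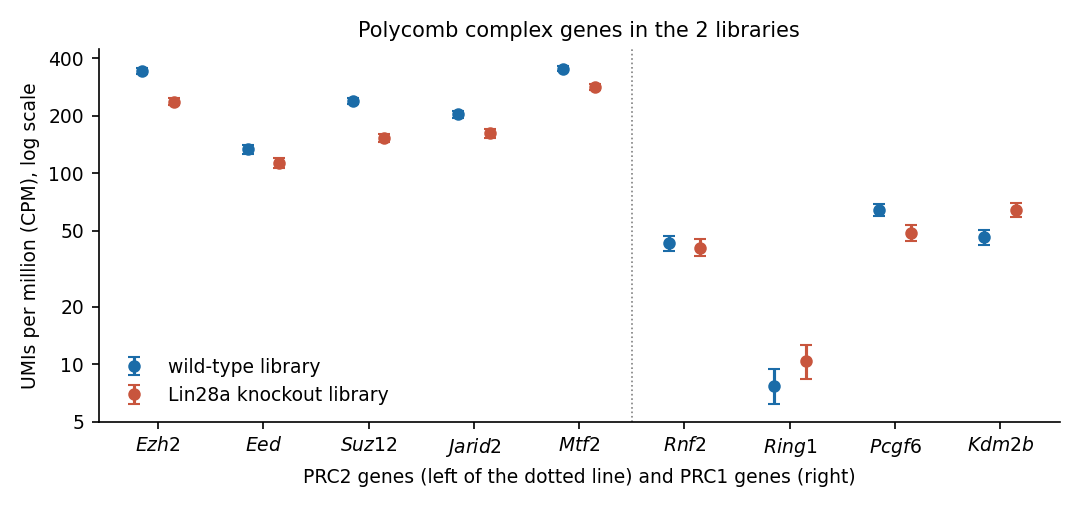
Level of each member in CPM (log axis) in the WT and the KO library, as points with exact 95% Poisson intervals that cover counting error only. The 5 PRC2 genes sit lower in KO, from a ratio of 0.643 for *Suz12* to 0.850 for *Eed*, while *Kdm2b* sits higher at 1.39.

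These ratios were read against those of all genes. With 0.5 added to each count, 9835 genes with at least 200 UMIs over both libraries could be compared, and their median ratio was 1.014. A ratio past 1.5-fold was higher in KO for 6.49% of them and lower in KO for 8.45%. Of the 9 members, 8 reached 200 UMIs and *Ring1*, with 187, did not. Among the 8, 1 passed 1.5-fold lower (*Suz12*) and 0 passed it higher, close to the share over all genes, while 7 had a ratio under 1, where 47.7% of all genes did, and the median was 0.798. The counting interval of the ratio lay below 1 for 6 of the 8, where it did for 29.2% of all genes, and above 1 for *Kdm2b* alone, where it did for 29.9%. Such intervals are narrower for genes with more UMIs and hold no spread between cultures. The lower count depends on the processing, with 3 (*Suz12*, *Pcgf6* and *Ezh2*) when every cell was weighted equally, 2 with median of ratios scaling, and 0 without cells from 15% RP share (the share of UMIs on ribosomal protein genes, taken up below). Under these settings 9835, 9835 and 9112 genes were compared. The count of all genes past 1.5-fold lower stayed within 1.5 times its main value of 831 in each. *Suz12* had a lower ratio than all but 6.85% of the genes and *Ezh2* than all but 10.3%. *Pcgf6*, *Jarid2*, *Mtf2* and *Eed* followed, with 16.1%, 19.98%, 21.2% and 27.3% of genes at lower ratios. *Rnf2* stood near the middle, with 40.2% below it, and *Kdm2b* stood high, with 89.5% below it. None of the members was therefore at the edge of the distribution of all genes.

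The PRC2 core was also seen in fewer KO than WT cells, a measure that depends on depth. *Ezh2* was detected in 75.9% of WT cells (73.8 to 77.8) and 51.8% of KO cells (49.3 to 54.2). When every cell was taken to 500 UMIs, the mean share was 15.6% in WT and 10.2% in KO. *Suz12* was detected in 60.6% and 37.7% of cells, and at 500 UMIs in 10.97% and 6.34%. *Kdm2b* was detected in 23.4% and 26.4% of cells, and at 500 UMIs in 2.40% and 3.36%. In the collagen-rich barcodes, *Pou5f1* was seen at 500 UMIs in 1.26% of WT and 4.53% of KO barcodes, against 33.2% and 34.2% of the other cells. Its UMIs lay in 7.32% and 14.3% of the collagen-rich barcodes, and whether free RNA or barcodes of mixed cells gave them was not tested. The thinned shares of *Ring1* (0.375% and 0.408%), *Rnf2* (1.98% and 1.41%), *Pcgf6* (3.003% and 1.84%) and *Kdm2b* all lie below the KO value of 4.53%, and no order is read from them. That value rests on 18 UMIs of *Pou5f1*, a gene at a far higher level. The WT shares of *Rnf2*, *Pcgf6* and *Kdm2b* lie above the WT value of 1.26%. Among cells outside the collagen-rich barcodes with at least 2000 UMIs, *Ezh2*, *Eed* and *Suz12* were all detected together in 637 of 1603 WT cells (39.7%) and 328 of 1098 KO cells (29.9%). None of the 3 was detected in 5.74% of these WT cells and 18.2% of these KO cells. The median cell held UMIs of 5 members in WT and 4 in KO, and the KO cells were spread further to both ends. UMIs of 8 members were in 2.25% of WT and 4.92% of KO cells, and of 0 members in 1.19% and 7.10%. These cells were not matched for depth or RP share between the libraries.

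Other genes of the 2 complexes and of the enzymes that undo their marks were taken from a list of 49, of which 38 reached 200 UMIs. Their median ratio was 0.972, with 4 past 1.5-fold higher in KO and 3 lower, counts near the 6.49% and 8.45% of all genes. The higher ones were *Epop*, a PRC2 accessory gene (174 CPM in WT and 283 in KO, ratio 1.63, 1.54 to 1.73), *Scml2* (5.58 and 18.6 CPM, ratio 3.34, 2.49 to 4.51), *Fbrs* (14.4 and 22.9 CPM, ratio 1.59) and the chromobox gene *Cbx2* (9.36 and 14.2 CPM, ratio 1.52, 1.17 to 1.98). *Epop* was thus a PRC2 gene with a difference opposite to that of the 5 PRC2 members. The lower ones were *Kdm6a*, a demethylase of H3K27 (47.9 and 25.7 CPM, ratio 0.536, 0.459 to 0.625), *Rybp*, a subunit of variant PRC1 (155 and 97.0 CPM, ratio 0.624, 0.576 to 0.676), and *Mga*, the DNA-binding partner of PCGF6 (207 and 138 CPM, ratio 0.666, 0.622 to 0.713). Of the 5 with the most UMIs, *Rbbp4*, the histone-binding subunit that PRC2 shares with other complexes, was at 267 CPM in WT and 266 CPM in KO (ratio 0.994, 0.943 to 1.05). *Usp7* (ratio 0.864), *Skp1a* (0.794), *Wdr5* (1.37) and *Epop* were the others. By role, the other PRC2 genes had a median ratio of 0.985 (5 of 9 compared), the other PRC1 genes 0.957 (25 of 30) and the counteracting enzymes 0.975 (8 of 10).

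**Figure D2:**
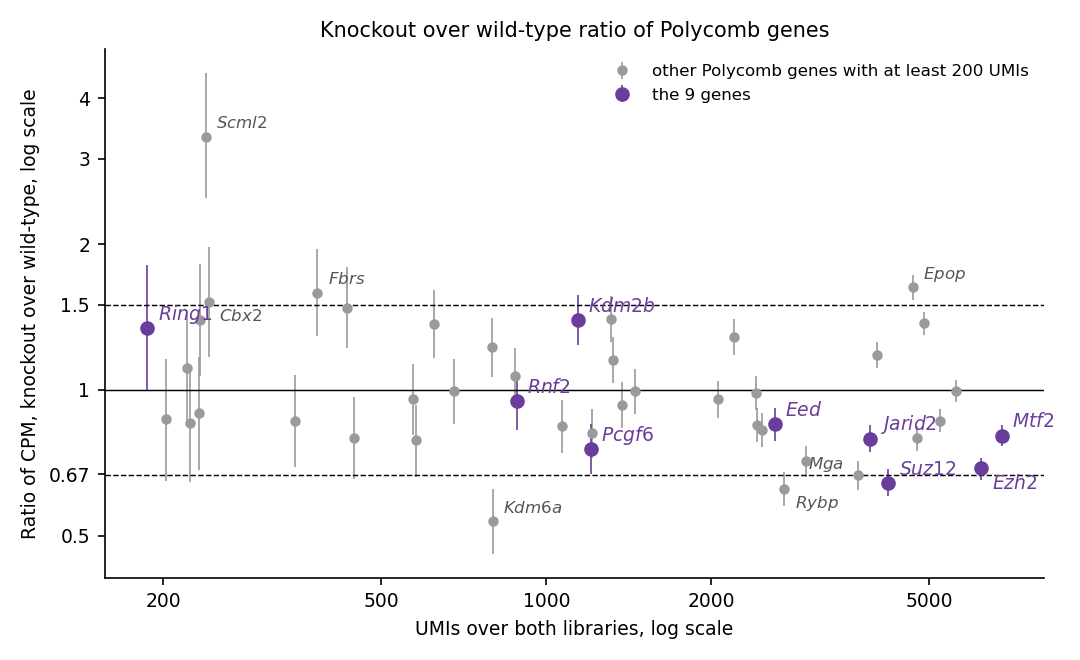
KO over WT ratio of CPM (log axis) against UMIs over both libraries (log axis) for the 9 members and the other Polycomb genes with at least 200 UMIs, with lines at 1.5-fold in either direction. *Suz12* is the member past the lower line, beside *Kdm6a*, *Rybp* and *Mga*, and *Kdm2b* lies under the upper line that *Epop*, *Scml2*, *Fbrs* and *Cbx2* pass.

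Genes that Polycomb complexes occupy in ES cells were mostly too low to read. Of 60 developmental regulators listed, 2 had 0 UMIs in both libraries, 39 had 1 to 49, 13 had 50 or more but under 200, and 6 had at least 200. Their sum was 530 CPM in WT (517 to 543) and 520 CPM in KO (505 to 535), a ratio of 0.981 (0.945 to 1.019). Outside the collagen-rich barcodes this ratio differed by RP share, with 1.11 (1.04 to 1.18) at 5 to 10% and 0.880 (0.798 to 0.970) from 15%. Under 5% and at 10 to 15% its intervals included 1. *Tbx3*, a transcription factor of naive ES cells, had the largest share of the sum, with 298 CPM in WT and 249.3 CPM in KO, and without it the ratio of the rest was 1.17 (1.10 to 1.23). *Nodal*, a TGF-beta family ligand, was at 47.6 CPM in WT and 72.9 CPM in KO (ratio 1.53, 1.37 to 1.72) and was the target past 1.5-fold. It held 554 of the 2700 UMIs of that rest in WT and 681 of the 2528 in KO. *Bmp4* (1.07, 0.945 to 1.20) and *En2* (1.246, 0.942 to 1.65) had intervals that included 1, and *Cdkn2a* was at 1.28 (1.06 to 1.53). *Eomes*, the other target with at least 200 UMIs, was lower in KO, at 0.708 (0.526 to 0.947).

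Within each library the levels of the members differed between groups of cells, in most cases by more than between the libraries. Cells were grouped by the share of their UMIs on 93 cytosolic ribosomal protein genes (RP share), leaving out collagen-rich barcodes. In WT, 83 cells had an RP share under 5%, 804 had 5 to 10%, 686 had 10 to 15% and 242 had 15% or more. In KO, these groups held 218, 382, 610 and 391 cells, so the KO library had more cells at both ends. Depth and mitochondrial share moved with RP share: the median mitochondrial share ran from 4.32% (WT) and 5.88% (KO) in the lowest group down to 0.188% and 0.277% in the highest, and the lowest group was shallow, with medians of 789 and 1207 UMIs against 5560 to 7234 in the others. The part of either in the results that follow was not tested.

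*Suz12* was at 211, 357, 194 and 39.7 CPM in the 4 WT groups, in order of rising RP share, and at 125, 264, 155 and 23.5 CPM in the KO groups. *Ezh2* was at 251, 435, 347 and 147 CPM in WT and at 220, 307, 272 and 104 CPM in KO. *Eed* was at 106, 173, 137 and 38.6 CPM in WT and at 102, 162, 132 and 29.1 CPM in KO. All 3 core genes had their highest value in the group of 5 to 10% and their lowest in the group from 15%, in both libraries. The WT interval of *Eed* under 5% (45.6 to 208) rests on 8 UMIs and includes its value at 5 to 10%. *Mtf2* took another course, with 660, 470, 334 and 122 CPM in WT and 661, 433, 270 and 87.4 CPM in KO, highest in the group under 5%. *Jarid2* was at 211, 262, 208 and 72.3 CPM in WT and at 260, 248.8, 159 and 52.2 CPM in KO. *Kdm2b* was at 79.2, 59.9, 43.5 and 16.3 CPM in WT and at 122, 76.5, 74.1 and 26.5 CPM in KO. Like *Mtf2*, *Kdm2b* was highest in the group under 5% in both libraries, though its WT interval there (29.1 to 172) rests on 6 UMIs.

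*Rnf2* was at 13.2, 65.8, 33.6 and 6.52 CPM in WT and at 13.1, 80.8, 36.4 and 4.35 CPM in KO. *Pcgf6* was at 13.2, 88.8, 60.2 and 19.0 CPM in WT and at 19.7, 65.5, 60.2 and 14.3 CPM in KO. These PRC1 genes had their highest values at 5 to 10%, like the PRC2 core. Their values under 5% rest on 1 UMI each in WT and on 4 and 6 UMIs in KO. The WT interval of *Rnf2* there (0.334 to 73.6) reached past its 65.8 CPM at 5 to 10%. *Ring1* was at 0 CPM in the WT group under 5%, where 0 UMIs of 75714 were seen, and at 5.86, 7.95 and 9.78 CPM in the others, and at 3.29, 10.7, 11.3 and 9.996 CPM in KO. It had no peak that its counts could resolve.

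**Figure D3:**
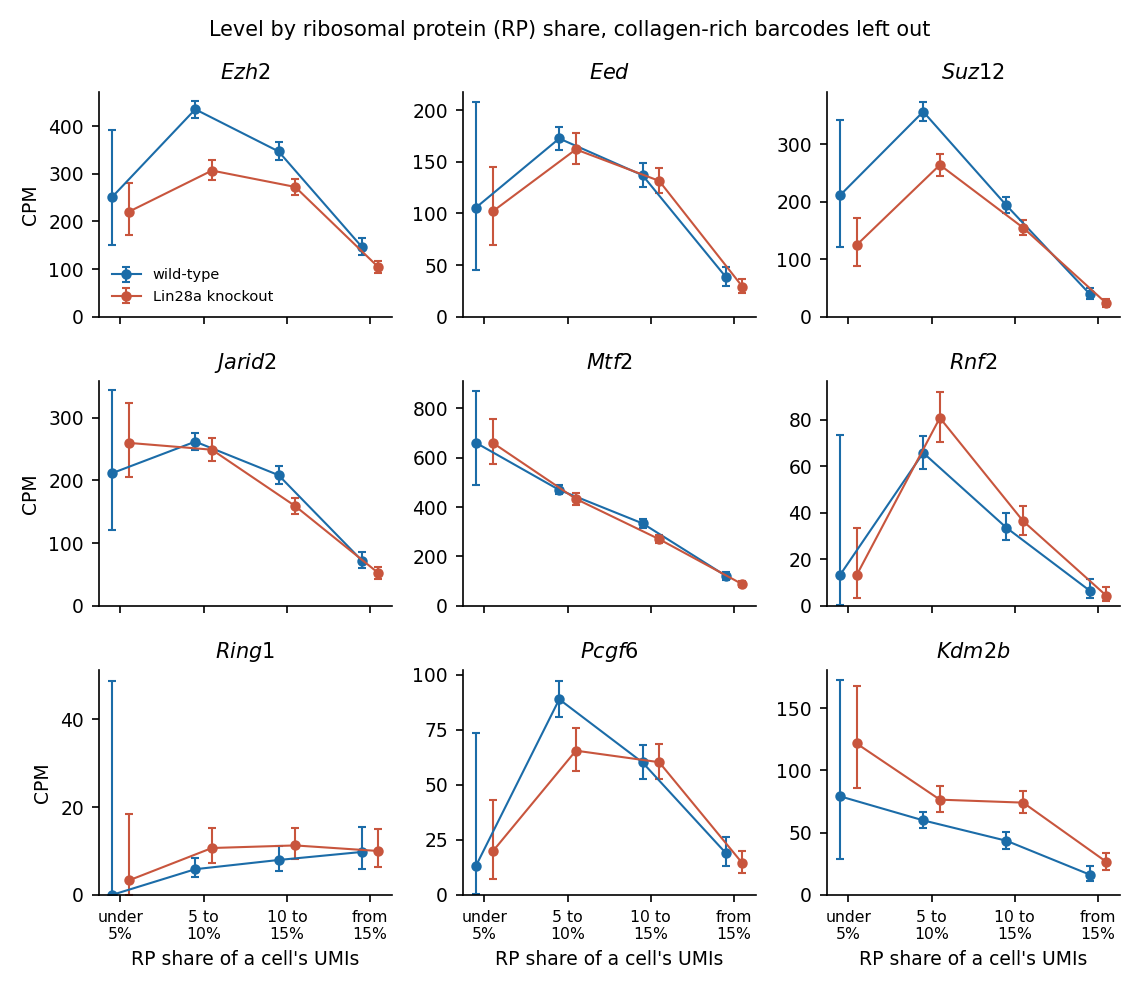
Level (CPM, axes from 0, 1 panel a gene) of each member in cells grouped by RP share, for the WT and the KO library, with exact 95% Poisson intervals for counting error. *Ezh2*, *Eed*, *Suz12*, *Rnf2* and *Pcgf6* have their highest values at 5 to 10% in both libraries, *Rnf2* and *Pcgf6* with 1 UMI each under 5% in WT. *Mtf2* and *Kdm2b* are highest under 5%, and, apart from *Ring1* and, in WT, *Pcgf6*, each member is lowest from 15%.

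In cells with an RP share of 15% or more, the 9 genes summed were at 470 CPM in WT (440 to 503) and 351 CPM in KO (327 to 376), against 1916 and 1649 CPM at 5 to 10%. The ratio of these groups, a contrast added after the data had been seen, was 0.246 in WT (0.229 to 0.263) and 0.213 in KO (0.197 to 0.230). It was 0.243 and 0.217 among cells with 5000 to 10000 UMIs, and 0.268 and 0.230 when RP and mitochondrial UMIs were left out of the total. *Rnf2* and *Suz12* had the lowest ratios, 0.0992 and 0.111 in WT and 0.0538 and 0.0887 in KO. *Ezh2* had the highest ratio of the PRC2 genes, at 0.337 (0.296 to 0.382) in WT and 0.339 (0.292 to 0.391) in KO. *Kdm2b* was at 0.272 and 0.346. *Jarid2* (0.276 and 0.210), *Mtf2* (0.259 and 0.202), *Eed* (0.224 and 0.1798) and *Pcgf6* (0.214 and 0.219) lay between those of *Suz12* and *Ezh2*. All 8 members compared were past 1.5-fold lower in both libraries, where 42.6% of all genes were in WT and 45.5% in KO (and 25% and 23.4% were higher), and the median member ratio was 0.242 and 0.206 against 0.806 and 0.750 over all genes. *Suz12* had a lower ratio than all but 2.07% of genes in WT and 2.39% in KO, and *Rnf2* than all but 1.66% and 0.641%. *Ring1* differed from the rest, with ratios of 1.67 (0.880 to 3.08) and 0.936 (0.519 to 1.67).

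In cells under 5% RP share, *Mtf2* was higher in both libraries and the other members were mixed or not resolved. Against all other cells, *Mtf2* was at 660 CPM and 363 CPM in WT, a ratio of 1.82 (1.35 to 2.40), and at 661 and 274 CPM in KO, a ratio of 2.41 (2.08 to 2.78). *Kdm2b* had ratios of 1.69 (0.619 to 3.71) in WT and 1.94 (1.35 to 2.71) in KO. *Jarid2* was at 1.0007 (0.571 to 1.63) in WT and 1.63 (1.28 to 2.04) in KO. *Ezh2* (0.705 and 0.918), *Suz12* (0.860 and 0.803) and *Eed* (0.768 and 0.889) had ratios under 1 with intervals that included 1, and *Pcgf6* was at 0.197 (0.00499 to 1.10) and 0.394 (0.144 to 0.864). *Mtf2* was thus the member whose interval lay above 1 in both libraries, and *Jarid2* and *Kdm2b* had theirs above 1 in KO alone, without a test of the difference between libraries. Of all genes, 73.0% in WT and 81.8% in KO had a lower ratio than *Mtf2*. The other cells include those from 15% RP share, where *Mtf2* was at 122 and 87.4 CPM. Past 1.5-fold, 2 of the 8 members were higher and 2 lower in WT, and 3 higher and 2 lower in KO, where 34.4% and 39.2% (WT) and 33.6% and 37% (KO) of all genes were. The WT group held 75714 UMIs in all, and its 2 lower members, *Rnf2* and *Pcgf6*, had 1 UMI each. With so few UMIs this count could hardly tell the members from all genes, and nothing is read from it. The 9 genes summed had ratios of 1.04 (0.863 to 1.253) in WT and 1.37 (1.2497 to 1.51) in KO. Among cells with 500 to 2000 UMIs, *Mtf2* had ratios of 1.70 (1.11 to 2.59) and 2.36 (1.76 to 3.18), and *Jarid2* 1.24 (0.594 to 2.52) and 2.43 (1.41 to 4.27). Of the core genes at that depth, *Suz12* was at 1.37 (0.648 to 2.84) and 1.07 (0.604 to 1.86), *Eed* at 0.867 and 1.10 and *Ezh2* at 0.703 and 0.816, all with intervals that included 1. The low KO values of *Rnf2* (0.312) and *Pcgf6* turned there to 1.96 (0.331 to 13.4) and 1.05 (0.262 to 3.84). In the cells under 5% RP share, ES markers summed to 2377 CPM in WT and 3041 CPM in KO, all 12 detected. The sums were 4944 and 5032 CPM in all cells outside the collagen-rich barcodes. Of the 12 other fibroblast markers, 5 were detected in WT and 7 in KO, summing to 1004 and 1197 CPM against 715 and 714. *Sparc*, which is in this list, had UMIs in 70.2% of WT and 62.1% of KO cells outside the collagen-rich barcodes.

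The KO over WT ratios were then taken within each RP group, since the libraries held different shares of these groups. *Ezh2* was lower in KO in 4 of 4 groups, with ratios from 0.705 at 5 to 10% to 0.878 under 5%. *Suz12* was lower in 4 of 4, from 0.591 to 0.7999, and the interval lay below 1 in 3 of the 4 groups for both genes. *Eed* had ratios of 0.755 to 0.964, with an interval below 1 in 0 of the 4. *Kdm2b* was higher in KO in all 4, from 1.28 at 5 to 10% to 1.70 at 10 to 15%, with an interval above 1 in 3. *Mtf2* ran from 0.718 to 1.0006, with an interval below 1 in 3 of 4, and *Jarid2* from 0.722 to 1.23, with one below 1 in 2 of 4, both with the lowest ratio from 15% and the highest under 5%. The differences of *Ezh2*, *Suz12*, *Mtf2* and *Kdm2b* were thus found within most RP groups as well as over all cells, and that of *Eed* was not resolved there. With collagen-rich barcodes kept, the *Mtf2* interval at 5 to 10% included 1 (0.949, 0.886 to 1.017). *Ring1* was at 1.82 (1.07 to 3.11) at 5 to 10% and had intervals that included 1 in the other groups. *Rnf2* was at 1.23 (1.03 to 1.46) at 5 to 10% and 0.667 (0.258 to 1.68) from 15%, and *Pcgf6* at 0.737 (0.618 to 0.876) at 5 to 10% and 1.002 (0.833 to 1.20) at 10 to 15%. The PRC2 sum was at 0.9499 (0.768 to 1.18) under 5%, 0.834 at 5 to 10%, 0.810 at 10 to 15% and 0.707 from 15%. The PRC1 sum was at 1.49 (0.7003 to 3.66) under 5%, 1.06 (0.962 to 1.17) at 5 to 10%, 1.254 (1.12 to 1.40) at 10 to 15% and 1.07 (0.813 to 1.41) from 15%. By depth, it was at 0.869 (0.702 to 1.07) among cells of 2000 to 5000 UMIs, 0.885 (0.798 to 0.981) among those of 5000 to 10000 and 1.12 (0.993 to 1.28) among those from 10000, so its side of 1 differed between depths, and it was at 0.908 when every cell was weighted equally. The PRC2 ratio was lowest among cells of 2000 to 5000 UMIs, 0.558 (0.512 to 0.606), and highest among those from 10000, 0.865 (0.824 to 0.907). From 10000 UMIs, *Eed* was at 1.07, *Jarid2* at 0.981, *Mtf2* at 0.915 and *Suz12* at 0.737. Over the 4 depth groups, the interval lay below 1 in 2 for *Eed*, *Jarid2* and *Mtf2* and in 3 for *Ezh2* and *Suz12*. Without the cells from 15% RP share, 0 members were past 1.5-fold, *Suz12* being at 0.712 (0.666 to 0.760). There 9112 genes were compared, and the counts of all genes past 1.5-fold stayed within 1.5 times those over all kept cells.

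The members also varied with genes of the cell cycle. Cells with at least 2000 UMIs were cut into 3 equal groups of low, middle and high share of UMIs on 43 S-phase genes or 52 G2/M genes, of which 0 are members. In all cells outside the collagen-rich barcodes, the S-phase genes summed to 5777 CPM in WT and 4701 CPM in KO. The G2/M genes summed to 8863 and 7590 CPM. The part of these differences in the KO over WT ratios of the members was not tested. From the low to the high S-phase group the 9 genes summed had a ratio of 1.66 (1.59 to 1.72) in WT and 2.17 (2.04 to 2.296) in KO. Past 1.5-fold, 7 of 8 members were higher in WT and 8 of 8 in KO, where 16.2% and 30.7% of all genes were, and 0 were lower, where 10.5% and 13.2% were. *Suz12* (2.12 and 2.85) and *Rnf2* (1.93 and 3.58) had the highest ratios and *Jarid2* (1.34 and 1.65) the lowest of the 8. RP share moved with this grouping, its median going from 12.2% to 9.20% in WT and from 17.0% to 9.94% in KO, and the ratios were much nearer to 1 within a narrow range of RP share. In WT the sum was then at 1.04 (5 to 10% RP share) and 1.08 (10 to 15%), and in KO at 0.984 and 1.21.

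Within these narrow ranges, chosen after the data had been seen, the PRC2 genes had unlike values. Over 4 values (WT and KO, each at 5 to 10% and 10 to 15% RP share), *Ezh2* had S-phase ratios of 1.15 to 1.32 with the interval above 1 in 4 of 4. *Suz12* was at 1.11 to 1.24 (2 of 4 above 1) and *Eed* at 1.03 to 1.31 (1 of 4). *Jarid2* was at 0.625 to 1.005, with 0 of 4 above 1 and 2 below. *Mtf2* was at 0.925 to 1.29 (1 of 4 above 1 and 0 below). By G2/M genes, *Jarid2* was at 1.32 to 1.45 and *Mtf2* at 1.22 to 1.42, each with the interval above 1 in 4 of 4. *Ezh2* was there at 1.02 to 1.18 (1 of 4), *Suz12* at 0.889 to 1.18 (0 of 4, and 1 below 1) and *Eed* at 0.971 to 1.17 (0 of 4). Over all 9835 genes, the phase genes included, 0.58% had the interval above 1 in 4 of 4 by S-phase genes and 0.986% by G2/M genes, and 0.325% and 0.305% had it below 1 in 4 of 4, shares that again depend on the UMIs of each gene. Within the ranges the groups were still not matched for depth. The high G2/M group was deeper than the low one in each. At 5 to 10% its median was 7291.5 against 6201.5 UMIs in WT and 9776 against 8046 in KO. By S-phase genes at 10 to 15% in KO, the median went from 6854 to 8346 UMIs and RP share from 12.4% to 11.1%. The differences between members, and the part of depth in these ratios, were not tested. Of the PRC1 genes, *Rnf2* was at 0.916 to 1.67 by S-phase and 1.22 to 1.77 by G2/M genes (1 of 4 above 1 in each), and *Pcgf6* and *Kdm2b* had 0 of 4 above 1 in either, with 1 *Kdm2b* interval below 1 by G2/M genes (lowest ratio 0.667). Over all RP shares, the G2/M ratio of the sum was 1.52 in WT and 1.81 in KO, with the median RP share going from 11.3% to 9.59% and from 15.8% to 10.8%, and 3 and 7 of 8 members were past 1.5-fold higher, where 11.7% and 22.3% of all genes were, and 0 were lower, where 5.11% and 7% were. At 5 to 10% RP share the sum was at 1.09 in WT and 1.14 in KO, and at 10 to 15% at 1.24 and 1.20.

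**Figure D4:**
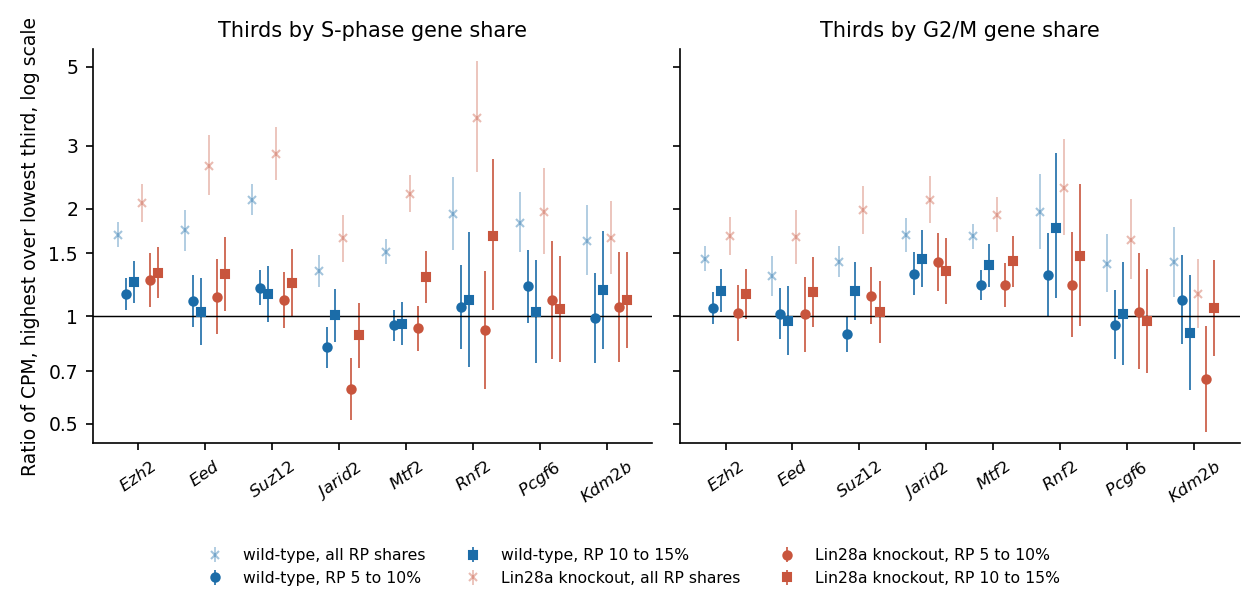
Ratio of CPM (log axis) of the high over the low group of cells by S-phase gene share (left) and G2/M gene share (right), for each member but *Ring1* in WT and KO, over all RP shares and within 5 to 10% and 10 to 15%, with exact 95% intervals for counting error. Within the narrow ranges all 4 intervals lie above 1 for *Ezh2* by S-phase genes (1.15 to 1.32) and for *Jarid2* (1.32 to 1.45) and *Mtf2* (1.22 to 1.42) by G2/M genes. The groups there were not matched for depth.

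The collagen-rich barcodes gave a comparison with cells of another kind in the same libraries. They held all 12 further fibroblast markers, summing to 13547 CPM in WT and 11288 CPM in KO, against 715 and 714 CPM in the other cells. *Pou5f1* was at 34.4 CPM in them in WT and 166 CPM in KO, against 867 and 1024 CPM. The 12 ES markers summed to 976 CPM in them in WT (11 detected) and 984 CPM in KO (9 detected), against 4944 and 5032 CPM. *Ezh2* was at 34.4 CPM (18.8 to 57.7) in WT and 27.6 CPM (5.69 to 80.7) in KO, against 355 and 239 CPM in the other cells. *Jarid2* was at 12.3 and 64.4 CPM against 211 and 163 CPM, and *Mtf2* at 29.5 and 46.0 CPM against 365 and 287 CPM. The PRC2 sum in collagen-rich barcodes was thus 0.108 (0.0823 to 0.140) of that in other WT cells and 0.230 (0.148 to 0.343) in KO. The PRC1 sum had higher ratios, 0.402 (0.264 to 0.587) and 0.501 (0.229 to 0.953). With a collagen limit of 1%, the PRC2 ratio was 0.0935 (0.0665 to 0.128) in WT and 0.0863 (0.0316 to 0.188) in KO, and with one of 0.2% it was 0.128 (0.1003 to 0.161) in WT and 0.210 (0.139 to 0.304) in KO, so the KO value was the higher at 0.2% and 0.5% but not at 1%. At 1%, the PRC1 ratio was 0.324 in WT and 0.166 (0.0201 to 0.601) in KO. *Kdm2b*, at 24.6 CPM (11.8 to 45.2) against 47.0 CPM in WT and 55.2 CPM (20.3 to 120) against 64.6 CPM in KO, was the compared member nearest to its level in the other cells, although in KO this rests on 6 UMIs and, with the 1% limit, its KO ratio was 0.212 (0.00536 to 1.19) and that of *Rnf2* 0.335 (0.00847 to 1.88). *Ring1* was at 22.1 CPM (10.1 to 42.0) in WT, from 9 UMIs, against 7.21 CPM (5.73 to 8.96), and had 0 UMIs in the 21 KO barcodes, which allows a level of up to 33.9 CPM by the exact interval. Past 1.5-fold lower were 8 of 8 members in WT and 7 of 8 in KO, where 39.6% and 36% of all genes were, and 0 members were past it higher, where 23.8% and 26.6% were. The KO barcodes were shallower, with a median of 2295 UMIs against 9273, and KO member values there rest on 33 UMIs in all. Collagen-rich barcodes were also poorer in S-phase genes, at 732 CPM (WT) and 1509 CPM (KO) against 5777 and 4701 CPM in the other cells. Their G2/M genes were at 1364 and 1822 CPM against 8863 and 7590 CPM. Their median RP share was 7.69% and 3.41%, against 10.1% and 11.3%. The part of these differences in the member ratios was not tested.

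**Figure D5:**
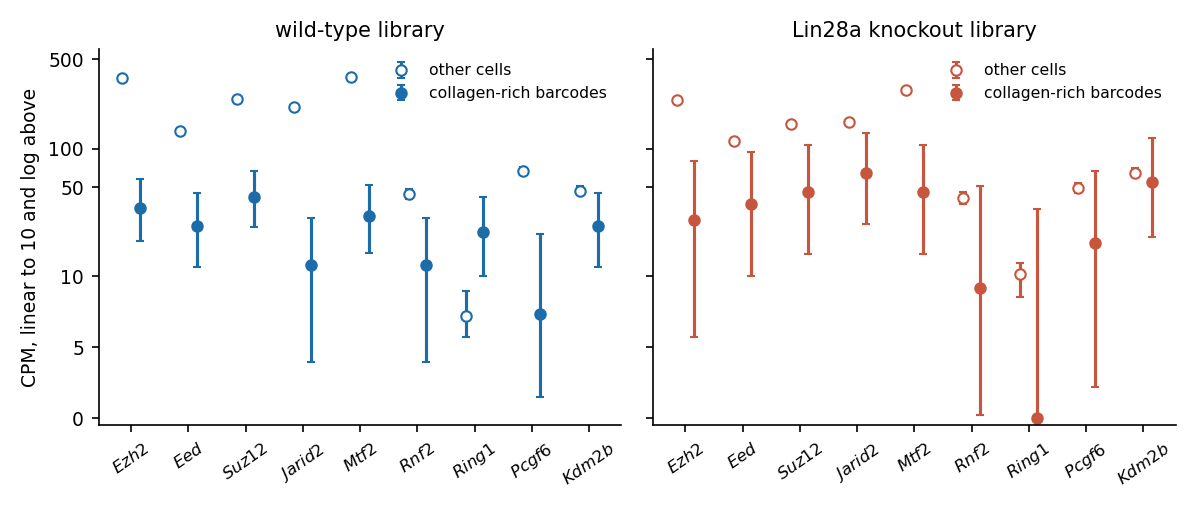
Level (CPM, linear to 10 and log above) of each member in collagen-rich barcodes and in the other cells of the WT and the KO library, with exact 95% Poisson intervals for counting error. The PRC2 genes lie far lower in collagen-rich barcodes (*Ezh2* 34.4 against 355 CPM in WT) and *Ring1* is higher there in WT. *Kdm2b* lies closest in WT, and its KO ratio goes from 0.855 to 0.212 with a collagen limit of 1%.

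The likeness of the members' courses was described over 20 strata, the cells of each library outside the collagen-rich barcodes cut into 10 groups of equal size by RP share. The strata share libraries, depth and RP share, so the coefficients (Pearson's r of log2 of CPM plus 10) are descriptions. *Jarid2* and *Mtf2* were alike at 0.975, *Ezh2* and *Suz12* at 0.960 and *Eed* and *Suz12* at 0.960, while *Kdm2b* ranged from 0.517 with *Pcgf6* and 0.575 with *Ezh2* to 0.785 with *Mtf2*, and *Mtf2* with *Pcgf6* was at 0.727. Over single cells with 5000 to 10000 UMIs the coefficients of all 36 pairs were far lower, with medians of 0.0841 in WT (1024 cells) and 0.121 in KO (502 cells), and *Jarid2* with *Mtf2* was at 0.160 and 0.323. Among 3812 genes, those most like each member were *Tax1bp1* (0.9898), *Alg13* and *Hspd1* for *Ezh2*, *Cse1l* (0.991), *Kdm3a* and *Atp6v1a* for *Eed*, and *Carnmt1* (0.991), *Yes1* and *Trim59* for *Suz12*. For *Jarid2* they were *Gtpbp4* (0.987), *Etnk1* and *Anln*, and for *Mtf2* *Pds5a* (0.991), *Dbf4* and *Etnk1*, so that *Etnk1* stood in both lists. For *Pcgf6* they were *Akirin2* (0.981), *Hdac2* and *Dars*. *Kdm2b* was most like the mitochondrial genes *mt-Atp6* (0.956) and *mt-Co1* (0.955) and like *Setd1b* (0.949). *Rnf2* and *Ring1* had fewer than 1000 UMIs and were not ranked.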

How the data were processed

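Raw UMI counts per gene and barcode of 2 inDrop libraries (1 WT, 1 *Lin28a* KO) were used as the authors deposited them. Per the study's methods, the authors made the matrices with a published inDrop pipeline and analysed them with Seurat; the submitters' processing notes name Seurat 2.3.4 and the build mm10. The aligner and the counting settings are not given in the sources used here. Gene identifiers were matched without their version to GENCODE M21 (54079 of 54146).

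Barcodes with under 500 UMIs or over 20% mitochondrial UMIs were left out, as in the methods. Doublets were kept, and Scrublet, run as an alternative, marked 25 WT (1.35%) and 15 KO (0.925%) cells. UMIs were summed per library and group of cells and turned into CPM (interval: exact Poisson). Cell shares carry Clopper-Pearson binomial intervals, and a ratio of 2 counts its exact conditional interval. With 1 library per group no test was made. For calls past 1.5-fold, a gene needed 200 UMIs over both libraries, and each of its counts was raised by 0.5. Shares at 500 UMIs are hypergeometric expectations, leaving no kept cell out. The members and gene lists were chosen with earlier results of these data known. Named were all members, other Polycomb genes past 1.5-fold or among the 5 with the most UMIs, the 5 targets with the most UMIs, *Lin28a*, and the 3 genes most like each member with at least 1000 UMIs. The target *Eomes* was added after its value was seen. Alternatives were other cell limits, denominators, scalings, folds and count minimums, and the contrast of cells from 15% RP share, the G2/M groups and the fits within a range of RP share or depth were added after the data had been seen. Motifs were searched in RefSeq promoter windows of GRCm38.p6. The scripts were tested on simulated data. The work used scipy 1.17.1, scanpy 1.11.5, pandas 2.3.3, numpy 2.4.6 and matplotlib 3.10.9 under Python 3.11.15.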

Additional observations from a re-analysis of the deposited data

Results flagged for a closer look

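The 9 genes summed also had UMIs in barcodes with fewer than 500 UMIs, which the comparisons of the report leave out and which enter only the alternative with no minimum of UMIs. In the 2472 such WT barcodes (median 147 UMIs) they were at 1273 CPM (1170 to 1383, 559 UMIs), and in the 4423 KO barcodes (median 129 UMIs) at 1159 CPM (1079 to 1243, 780 UMIs). Both are above the limit that a count of 0 allows, 6.83 CPM in WT and 4.46 CPM in KO. *Ezh2* was at 367 CPM (312 to 428) in WT and 337 CPM (295 to 384) in KO there, so that the intervals of the libraries overlapped, unlike in the kept cells. *Eed* was at 61.5 CPM (40.5 to 89.5) in the WT barcodes, lower than its 133 CPM in kept cells, and at 80.2 CPM (60.3 to 105) in the KO barcodes. Whether these barcodes held shallow cells or free RNA was not tested.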

How the results depend on the processing

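No paired analysis was possible because each group has 1 library. Of 1332 values under alternatives, over 139 results, 1139 stayed within their counting interval (counts of genes, within 1.5 times), 173 moved further, and 20 turned a ratio whose interval had not included 1 to the other side of 1. Part of those that stayed was fixed in advance. The groups by S-phase and G2/M genes need at least 2000 UMIs, so a lower minimum of UMIs left the same cells. Depth limits *Ring1* in every group, *Rnf2*, *Pcgf6* and *Kdm2b* under 5% RP share, and all KO members in collagen-rich barcodes; the causes of the changes below were not tested.

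The KO over WT ratio of the PRC2 sum (0.745) was 0.701 with every cell weighted equally, 0.720 with median of ratios scaling (a shift of 0.05 on the log2 scale), 0.813 without cells from 15% RP share and 0.860 with 5 to 10% only, collagen-rich barcodes kept. That of the PRC1 sum (1.017) was 0.908 with equal weights and 1.10 without cells from 15%. That of the targets (0.981) was 1.023, 1.03 and, at 5 to 10% only, 1.09. By member, the ratio of *Rnf2* ran from 0.713 with equal weights to 1.26 at 5 to 10%. Its 0.948 thus lay on either side of 1 by setting.

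The sum under 5% over other cells was 1.76 (WT) and 1.90 (KO) with a limit of 10%, and 1.57 in KO among cells with 500 to 2000 UMIs. In KO, *Rnf2* turned to 3.05 and *Pcgf6* to 1.42 with the 10% limit, and to 1.96 and 1.05 among cells with 500 to 2000 UMIs. The KO collagen-rich ratio of the 9 genes summed (0.270) was 0.0980 with a collagen limit of 1%.

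The S-phase ratio of the sum in WT was 1.59 without RP and mitochondrial UMIs in the total, 1.55 with equal weights, 1.04 at 5 to 10% and 1.08 at 10 to 15% RP share, and in KO 2.04 in cells with at least 5000 UMIs, 0.984 at 5 to 10% and 1.21 at 10 to 15%. Other S-phase ratios that turned at 5 to 10% were *Jarid2* 0.817 (WT) and 0.625 (KO), *Mtf2* 0.942 and 0.925, *Kdm2b* 0.988 (WT), *Rnf2* 0.916 (KO) and the PRC2 sum 0.981 (KO), and at 10 to 15% *Mtf2* 0.953 (WT) and *Jarid2* 0.884 (KO). G2/M ratios that turned were, at 5 to 10%, *Suz12* 0.889 and *Pcgf6* 0.946 in WT and the PRC1 sum 0.947 in KO, and, at 10 to 15%, *Eed* 0.971 and *Kdm2b* 0.899 in WT and *Pcgf6* 0.969 in KO.

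The counts of genes rest on different numbers compared. These were 9835 in the main setting, with equal weights and at other folds, and 9112 without cells from 15%. They were 6465 at 5 to 10%, 15453 with at least 50 UMIs and 6291 with at least 500. The other Polycomb genes compared were counted in the main setting only (38). Other Polycomb genes past the fold and higher in KO (4) were 1 at 5 to 10%, 1 with at least 500 UMIs, 10 at a lower fold (0.32 on the log2 scale) and 1 at a fold of 2. Those lower (3) were 7 with equal weights, 1 without cells from 15%, 1 at 5 to 10%, 7 at the lower fold and 0 at 2. Of all genes, those higher (638) were 1026 with equal weights, 262 at 5 to 10%, 1616 with at least 50 UMIs, 275 with at least 500, 1938 at the lower fold and 113 at 2, and those lower (831) were 390 at 5 to 10%, 1465 with at least 50, 541 with at least 500, 2048 at the lower fold and 175 at 2.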

Other observations

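Genes of DNA methylation and of endogenous retrovirus silencing, which act beside Polycomb on silent chromatin, were listed as well. Of 9 DNA methylation genes, 8 reached 200 UMIs, 0 were past 1.5-fold in either direction and the median ratio was 0.755. *Tet1*, an oxidase of methylated cytosine, was at 425 CPM in WT and 288 CPM in KO (ratio 0.678, 0.646 to 0.710), while *Uhrf1*, which guides maintenance methylation, was at 198.8 and 194 CPM (0.975, 0.916 to 1.04). Of 16 retrovirus silencing genes, 15 were compared, 0 were past 1.5-fold higher and 4 lower (6.49% and 8.45% of all genes), with a median of 0.905. The lower ones were *Atrx* (340 and 153 CPM, ratio 0.4502), *Morc3* (71.3 and 34.4 CPM, 0.482), *Cbx5* (298 and 163 CPM, 0.547) and *Cbx3* (514 and 333 CPM, 0.647), and *Trim28*, a corepressor that zinc finger proteins recruit, was at 495 and 685 CPM (1.38, 1.34 to 1.43). These genes were named after their values were seen.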
